A study of Rattus norvegicus with 4 samples.

Results

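The genes described here are 10 rat genes of macrophage lipid storage and efflux: Nr1h3, Nr1h2, Abca1, Abcg1, Apoe, Lpl, Fabp4, Fabp5, Plin2 and Soat1. They were chosen by name, with earlier results of these data known. A non-control array probe was assigned to a gene when its accession matched that gene. All 10 had a probe, out of 16581 genes with a named probe, and together they had 11 of the 45598 non-control probes. NR8383 is a macrophage line established from normal rat lung by lavage, here used after 20 passages. The cultures were exposed to NM403, a multi-walled carbon nanotube material, at 0.8 cm² of material per cm² for 4 h. For all 4 cultures the design lists 15% serum and a seeding time of 48 h. Total RNA was measured on 1-colour Agilent arrays, 1 array per culture. The 4 arrays analysed here form 1 group of 4 cultures labelled as biological replicates. Unexposed control cultures that the design names were not analysed here, so no value below is a response to NM403. A level from a whole culture cannot tell fewer cells with a transcript from less of it per cell.

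Macrophages take up lipoprotein lipid, store the surplus as esters in droplets, and release cholesterol to carriers outside the cell. Liver X receptors, which bind oxidised cholesterol, raise transcription of the exporters Abca1 and Abcg1 and of the carrier Apoe, while lipid droplets are coated by perilipins and filled by acyltransferases. In the lung, alveolar macrophages also clear the lipids of surfactant.

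Levels are log2 processed intensities minus the 75th percentile, on the same array, of the probes above background on all 4 arrays, so a level of 0 is the intensity of that percentile. Probes differ in how strongly they bind, so a level describes 1 probe across cultures and does not rank genes. Each array held 58717 non-control spots, of which 45.9% to 50.8% were called well above background by the scanner software. The 308 negative control spots had median intensities of 8.36 to 12.0 units, and the brightest of them read 184 to 356 units. No spot was saturated, and the software marked replicate 4 for evaluation. The arrays resembled each other unevenly: across 7937 genes above background on all arrays, Pearson's r was 0.996 between replicates 1 and 3, 0.992 between replicates 2 and 4, and 0.967 to 0.970 in the other pairs. These correlations are over genes, which are not independent replicates. The number of arrays limits every SD below.

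In the exposed cells, 9 of the 10 genes were above background on all 4 arrays, and Apoe was on 3. Over all genes with a named probe, 47.9% were above background on all 4 arrays. None of the 9 genes differed by more than 2-fold between the highest and lowest culture, where 13.6% of the 7937 genes did. Their median SD between cultures was 0.26 on the log2 scale, with single genes from 0.05 (Lpl) to 0.50 (Fabp4), beside a median of 0.23 over the 7937 genes. For 8 of the 11 probes the software's own error estimate was close to 10% of the intensity of a spot on every array, and it reached 16.0% for Abca1, 10.8% for Soat1 and 21.9% for Apoe.

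**Figure D1:**
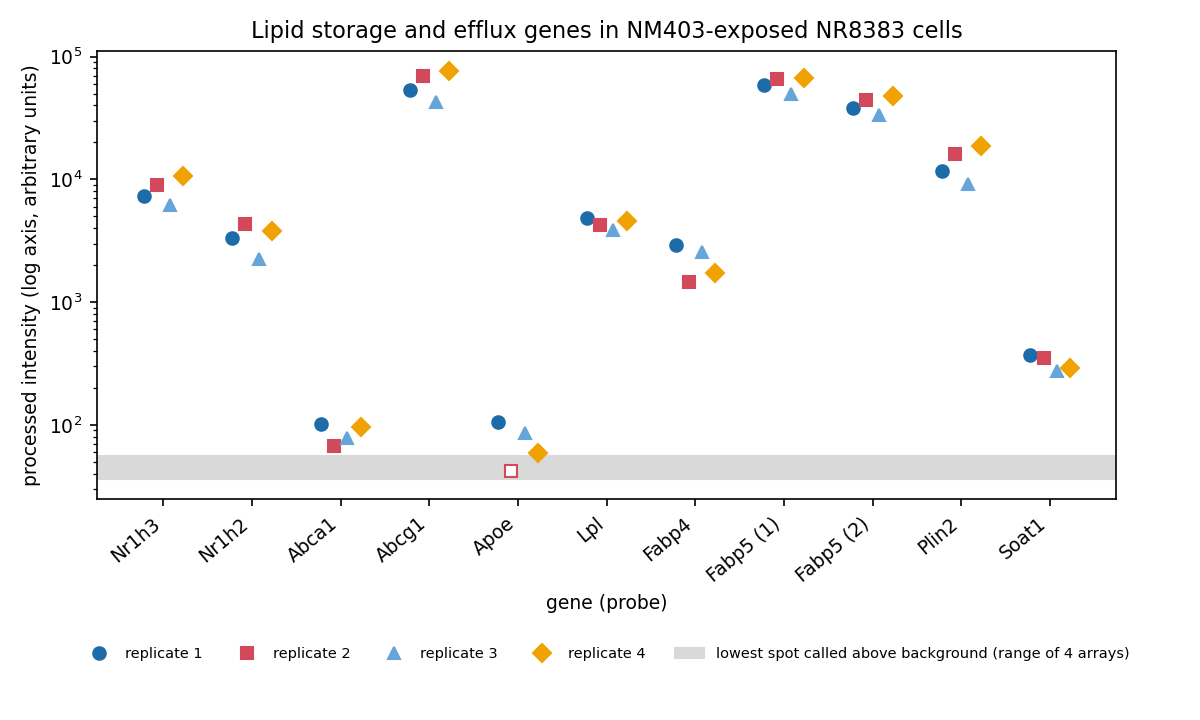
Processed intensity (log axis, arbitrary units) of each probe of the 10 genes on the 4 arrays, with filled symbols where the probe was above background, an open symbol where it was not, and a grey band from 36.2 to 56.2 units for the lowest spot called on each array. Only Apoe has an open symbol, on replicate 2, and Abca1 lies above the band on all 4 arrays.

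The receptor genes were read clearly on every array. Nr1h3, which encodes liver X receptor alpha, the form enriched in macrophages, liver and fat, had levels of 1.44, 1.83, 1.45 and 1.95 on replicates 1 to 4, or intensities from 6172 to 10710 units. Replicates 2 and 4 were the higher pair of readings, and the range was 1.42-fold (mean 1.67 ± 0.26, SD, n = 4). Nr1h2, which encodes the widely expressed liver X receptor beta, had levels of 0.30, 0.79, 0.00 and 0.45. Replicate 2 was highest and replicate 3 lowest, a 1.72-fold range (0.39 ± 0.33, SD, n = 4). Replicates 1 and 4 lay closer together for this gene than either did to the extremes. Replicate 4 remained the highest for Nr1h3, and replicates 2 and 3 the highest and lowest for Nr1h2, under all 6 alternative scalings and probe rules that used the 4 arrays. With scaling on all non-control probes the SD was 0.47 for Nr1h3 and 0.521 for Nr1h2, and it was 0.16 for Nr1h3 with quantile normalization.

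The exporter genes differed in how far they stood from background. Abcg1, the transporter that loads cholesterol onto high-density lipoprotein, had intensities of 53140, 69760, 42560 and 76110 units on replicates 1 to 4, or levels of 4.29, 4.79, 4.24 and 4.78. Replicates 2 and 4 were alike and higher than replicates 1 and 3, which were also alike, over a 1.47-fold range (4.52 ± 0.30, SD, n = 4). The range of Abcg1 was 1.18-fold (SD 0.119) with quantile normalization and 1.92-fold (SD 0.515) when arrays were scaled on all non-control probes. Abca1, the transporter that loads cholesterol onto lipid-poor apolipoprotein A-I, had intensities of only 101, 67.7, 78.4 and 95.4 units. Its single spot was called well above background on all 4 arrays, but its intensity was 0.19 to 0.51 times that of the brightest negative control spot of the same array. The levels were -4.75, -5.22, -4.85 and -4.86, with replicate 2 apart from the others (-4.92 ± 0.20, SD, n = 4), and the SD was 0.0612 without replicate 2. Which replicate read highest for Abca1 changed under 4 of the 6 alternatives, so its 1.38-fold range carries no firm order of the cultures.

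Abca1 is a textbook target of the liver X receptors, and the 250 bases before its annotated start are shown because of that role. The sequences come from RefSeq (build GRCr8), which holds promoters for 6 of the 10 genes: Abca1, Apoe, Nr1h2, Nr1h3, Plin2 and Soat1. Those of Plin2 (the outer of its 2 listed starts) and Nr1h2 stand beside it because these genes had the widest ranges between cultures among those with a listed promoter and a reading above background on all 4 arrays. Capitals mark exact matches on either strand to 4 motifs. The TATA box was searched as TATAAA. The GC box was searched as GGGCGG, and the E-box as CACGTG. The site of ETS family factors was searched as CCGGAAGT.
Abca1, chr5:72596474-72596723, minus strand: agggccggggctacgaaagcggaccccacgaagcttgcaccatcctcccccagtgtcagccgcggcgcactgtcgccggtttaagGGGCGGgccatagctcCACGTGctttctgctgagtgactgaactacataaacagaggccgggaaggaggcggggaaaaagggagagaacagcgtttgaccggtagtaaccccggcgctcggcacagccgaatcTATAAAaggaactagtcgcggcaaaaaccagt
Plin2, chr5:106229019-106229268, minus strand: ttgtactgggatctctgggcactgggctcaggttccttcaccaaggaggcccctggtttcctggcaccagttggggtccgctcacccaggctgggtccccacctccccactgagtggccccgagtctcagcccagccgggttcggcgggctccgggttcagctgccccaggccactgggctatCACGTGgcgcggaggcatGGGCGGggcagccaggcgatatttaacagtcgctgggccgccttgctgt
Nr1h2, chr1:104183864-104184113, minus strand: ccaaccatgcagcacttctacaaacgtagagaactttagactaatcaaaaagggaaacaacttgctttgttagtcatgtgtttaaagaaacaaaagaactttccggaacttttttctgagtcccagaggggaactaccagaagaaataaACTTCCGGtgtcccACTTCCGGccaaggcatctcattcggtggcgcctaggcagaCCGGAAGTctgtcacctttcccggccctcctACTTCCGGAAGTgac
The Abca1 window held 1 TATA box, starting 32 bases before the start, 1 GC box and 1 E-box. The Plin2 window shown held 1 GC box and 1 E-box, and the window of its other listed start held none of the motifs searched. The Nr1h2 window held 5 ETS matches, of which the 2 nearest the start overlap on opposite strands. Of 33360 different promoter windows of the same length, 12.9% held TATAAA, 30.5% GGGCGG, 5.61% CACGTG and 3.11% CCGGAAGT at least 1 time.

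The element that liver X receptors bind with their partner RXR is a direct repeat, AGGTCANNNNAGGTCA, and was searched on both strands over its 12 fixed bases. The best match among the listed promoters was in Abca1, with 3 mismatches, ending 54 bases before the start on the opposite strand. It is shown in capitals with its flanks.
Abca1 repeat: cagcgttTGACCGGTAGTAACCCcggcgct
Of all promoter windows, 18.6% held a match at least as good, and 2.49% one with 2 or fewer mismatches. The matches in the other listed windows had 4 or 5 mismatches. A match of letters is a description of the window, and binding was not measured here.

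**Figure D2:**
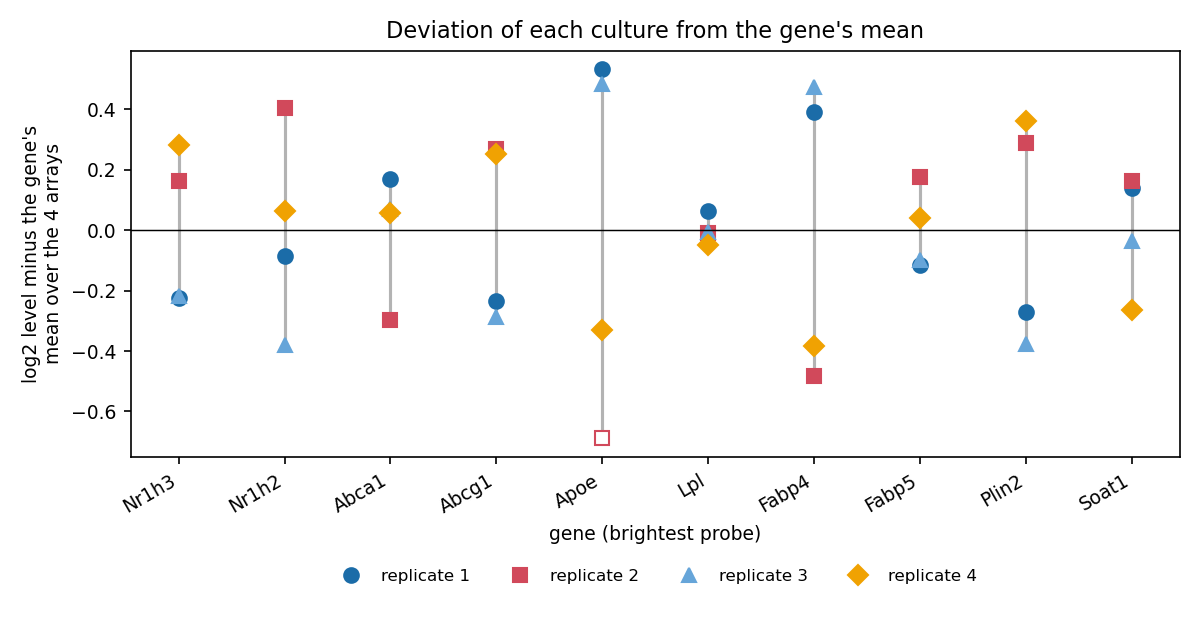
Deviation of each culture's log2 level from the mean of the 4 arrays, for the brightest probe of each gene, with lines spanning the highest and lowest culture and an open symbol where the probe was not above background. Replicates 1 and 3 lie at the top for Fabp4 and Apoe, and by a narrow margin for Abca1. They lie at the bottom for Nr1h3, Nr1h2, Abcg1, Fabp5 and Plin2. All 4 symbols nearly coincide for Lpl.

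Apoe, the apolipoprotein that macrophages secrete as a cholesterol acceptor, was the gene of the 10 that did not pass the background call on every array. Its probe was printed 10 times on each array. After spots flagged as outliers were left out, 8 of 8 spots were above background on replicate 1, 5 of 10 on replicate 2, 9 of 9 on replicate 3 and 7 of 10 on replicate 4. A probe counted as above background when more than 50% of its spots were, so Apoe missed on replicate 2. Its mean intensities were 106, 42.1, 85.1 and 59.5 units, or levels of -4.68, -5.90, -4.73 and -5.54. Replicates 1 and 3 read alike and higher, replicates 2 and 4 lower, over a 2.33-fold range. The SD between spots was 0.05 to 0.23 within an array, against an SD of 0.61 between the 4 arrays. Kept spots ran from 99.4 to 110.5 units on replicate 1, 31.4 to 50.4 units on replicate 2, and replicate 3 had 76.2 to 93.8 units against 41.8 to 75.6 units for replicate 4. The size of the range depended on the background correction and the scaling, from 1.53-fold with normexp (SD 0.291) to 2.41-fold with outlier spots kept. It was 1.65-fold (SD 0.329) with quantile normalization and 1.82-fold (SD 0.402) with scaling on all non-control probes. All of these intensities lay below the brightest negative control spot of their array. On replicate 2, 1 Apoe spot had 6 neighbouring spots at 4 times or more their reading elsewhere. On replicate 4, 2 Apoe spots had such neighbours, at most 3 each, and on replicate 1, 1 did. Over all 10 genes, 13 of 152 spot readings had a raised neighbour. The others were of Plin2 and Fabp5 on replicates 2 and 4, Soat1 on replicates 1 and 4, and Lpl on replicate 1. No spot of the 10 genes was raised itself. The part of these neighbours in the readings was not tested.

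**Figure D3:**
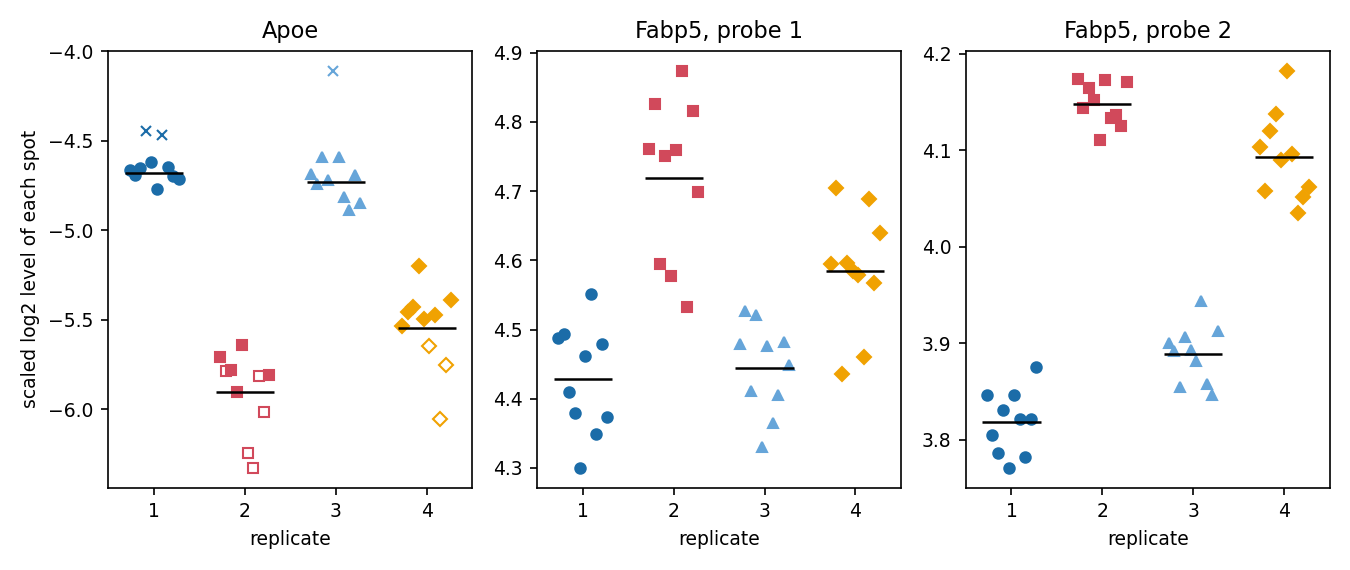
Scaled log2 level of each of the 10 spots per array of the Apoe probe and of both Fabp5 probes, by replicate, with filled symbols for spots above background, open symbols for spots below it, crosses for outlier spots left out, and a bar at the mean. The Apoe spots fall to -6.33 on replicate 2, while every Fabp5 spot is above background.

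Among the genes of fatty acid uptake and binding, Lpl varied least between cultures and Fabp4 most. Lpl, the secreted lipase that frees fatty acids from lipoprotein triglyceride, had levels of 0.84, 0.76, 0.77 and 0.72, or intensities of 3842 to 4845 units. The 4 cultures read nearly the same, a 1.08-fold range. The SD was 0.0473 over all 4 and 0.0264 when replicate 1 was left out. This range was within the software's error estimate of about 10% for a spot. That estimate was also 10.0% on every array for both Fabp5 probes, whose repeated spots differed in scatter. It is therefore no measured scatter of the Lpl probe, which had 1 spot per array. The range was 1.31-fold when arrays were scaled on all non-control probes, so the steadiness holds relative to the probes used for scaling.

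Fabp4, the fatty acid binding protein of adipocytes and activated macrophages, had the largest SD of the 9 genes above background on all arrays. Its intensities were 2898, 1466, 2550 and 1733 units, or levels of 0.09, -0.78, 0.18 and -0.68. Replicates 1 and 3 lay above replicates 2 and 4 with no reading between them, and the range was 1.94-fold (-0.30 ± 0.50, SD, n = 4). Replicate 3 stayed highest and replicate 2 lowest under all 6 alternatives, with ranges of 1.48-fold to 1.94-fold and an SD of 0.29 with scaling on all non-control probes. By root mean square difference of the mean-centred levels over the 4 arrays, the genes of the 7937 most like it were Nr3c1 (0.0118), Pms1 (0.0134) and Cacfd1 (0.0139). Nr3c1, the glucocorticoid receptor gene, read 2.32, 1.42, 2.39 and 1.52. With 4 arrays that fall into 2 like pairs, such closeness describes these arrays and says nothing of shared control.

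Fabp5, the epidermal-type fatty acid binding protein also found in macrophages, had 2 probes, each printed 10 times. The brighter read 4.43, 4.72, 4.44 and 4.59, and varied with an SD of 0.14, which was 0.086 when replicate 2 was left out. The other read 3.82, 4.15, 3.89 and 4.09, with an SD of 0.16. Both placed replicate 2 highest and replicate 1 lowest, with the lowest place of the brighter probe changing under 3 of the 6 alternatives, and their deviations from their own means never differed by more than 0.07. The spots of the brighter probe scattered with an SD of 0.07 to 0.12 within an array and those of the other with 0.02 to 0.05. The brighter probe ranged 1.22-fold between cultures, with an SD of 0.0703 under quantile normalization and 0.342 under scaling on all non-control probes, and its highest array changed to replicate 1 with quantile normalization. Fabp4 and Fabp5 belong to the same gene family but differed in which cultures read high: replicates 2 and 4 were the low pair of readings for Fabp4 and the high pair for Fabp5, an order that Fabp5 did not keep under quantile normalization.

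The droplet genes also differed. Plin2, the perilipin that coats lipid droplets in macrophages, had intensities of 11780, 16130, 9099 and 18660 units, or levels of 2.12, 2.68, 2.01 and 2.75. Replicates 2 and 4 were higher than replicates 1 and 3, a 1.67-fold range (2.39 ± 0.38, SD, n = 4), and both stayed higher under all 6 alternatives. The SD of Plin2 was 0.25 with quantile normalization and 0.591 with scaling on all non-control probes. Soat1, the enzyme that esterifies cholesterol for storage, had levels of -2.86, -2.84, -3.04 and -3.26, with intensities of 275 to 374 units. Replicates 1 and 2 read alike and replicate 4 lowest, a 1.34-fold range (-3.00 ± 0.20, SD, n = 4), and the SD was 0.115 without replicate 4 and 0.0962 with normexp. The lowest array was instead replicate 3 under 2 of the 6 alternatives, the percentile of all non-control probes and quantile normalization. On replicates 2 and 4 its spot read 0.99 and 0.98 times the brightest negative control spot.

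Between single pairs of cultures, few of the 9 genes differed by more than 1.5-fold. Between replicates 2 and 1, 1 did (Fabp4, lower in replicate 2), where 24.9% of all 7937 genes did. Between replicates 4 and 1, 2 did (Fabp4 lower and Plin2 higher in replicate 4), against 28.3% of all genes. Between replicates 3 and 2, 3 did (Fabp4 higher, Plin2 and Nr1h2 lower in replicate 3), against 25.7%. Between replicates 4 and 3, 2 did (Fabp4 lower and Plin2 higher in replicate 4), against 28.1%. None did between replicates 3 and 1 or between replicates 4 and 2, where 1.9% and 3.97% of all genes did. Counts this small do not set the 9 genes apart from all genes.

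**Figure D4:**
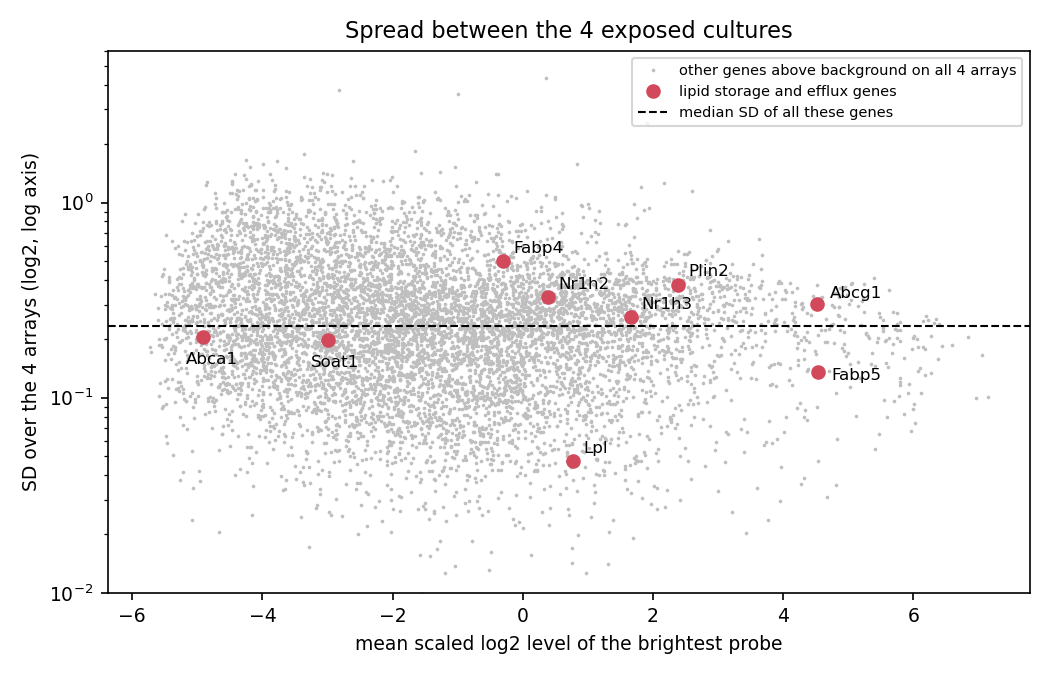
SD over the 4 arrays (log2, log axis) against the mean scaled log2 level for 7937 genes above background on all arrays, with the 9 lipid storage and efflux genes in red and the median SD of 0.234 as a dashed line. Of the 9 genes, 5 lie above the line and 4 below it, and Lpl lies far below.

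Other genes of the pathway were counted in 7 lists by role, with 73 genes beside the 10 and 66 of them with a named probe. Of the 66, 40 were above background on all 4 arrays, 8 on some of them and 18 nowhere, beside 47.9% of all named genes on all 4 arrays. The median SD of the 40 was 0.20, and 3 had a range above 2-fold (Msr1, Rxra and Ncor1), where 13.6% of the 7937 genes did. Msr1 and Rxra read below Soat1 on every array, so signal close to background limits both. Among fatty acid binding proteins, Fabp4 and Fabp5 were the only ones of 10 above background on all arrays, Fabp9 was on 2 arrays, and 7 were on none. Of 9 measured droplet coat and assembly genes 7 were above background on all arrays, and of 11 esterification and ester hydrolysis genes 9 were.

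The receptor partners were present unevenly. Pparg, the fatty acid receptor that directs the alveolar macrophage programme, had levels of 2.11, 2.37, 2.18 and 2.42. Rxrb, a dimer partner of the liver X receptors, had levels of -1.87, -1.58, -1.84 and -1.56. Rxra, another partner, varied more between cultures, at -4.91, -5.01, -3.87 and -4.50. These levels lay below those of Soat1 on every array, so signal close to background limits Rxra. Ppard was above background on 2 arrays only, and Rxrg on none. Both Pparg and Rxrb read slightly higher on replicates 2 and 4, as Nr1h3 did.

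Uptake and lysosomal release genes were mostly above background. The brighter probe of Cd36, the fatty acid and oxidised lipoprotein receptor, had levels of 4.45, 4.40, 4.49 and 4.18. Its other probe read -0.34, -1.03, -0.25 and -1.34, with a wider gap between replicates, so the 2 probes disagreed on the spread. The brighter probe of Scarb1, the high-density lipoprotein receptor, had levels of -1.11, -0.62, -1.08 and -0.57, and its other probe instead read lowest on replicate 4, at -2.97. Lipa, the lysosomal acid lipase, had levels of 2.33, 2.73, 2.42 and 2.76. Npc1 and Npc2, which move cholesterol out of lysosomes, had levels of 0.48 to 0.70 and 1.29 to 1.66. Replicates 2 and 4 were the high readings for Lipa and Npc2, and replicates 1 and 2 for Npc1.

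Ester hydrolysis and further target genes followed. Nceh1, a cholesteryl ester hydrolase of macrophages, had levels of -1.44, -1.84, -1.49 and -2.03, lower on replicates 2 and 4. Pnpla2, the triglyceride lipase of droplets, stayed between -0.20 and 0.02. Abca7, a relative of Abca1, had levels of -2.23, -3.13, -2.21 and -3.18, again lower on replicates 2 and 4. Mylip, a liver X receptor target that degrades the low-density lipoprotein receptor, had levels of -4.83, -5.11, -4.59 and -5.33. Of 7 further liver X receptor targets, Mylip, Srebf1 and Lpcat3 were above background on all arrays, where 47.9% of all named genes were. Abcg8 was on 1, and Scd, Abcg5 and Arl4c were on none. Signal close to background limits Mylip. The genes Plin3 and Hilpda had no named probe.

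**Figure D5:**
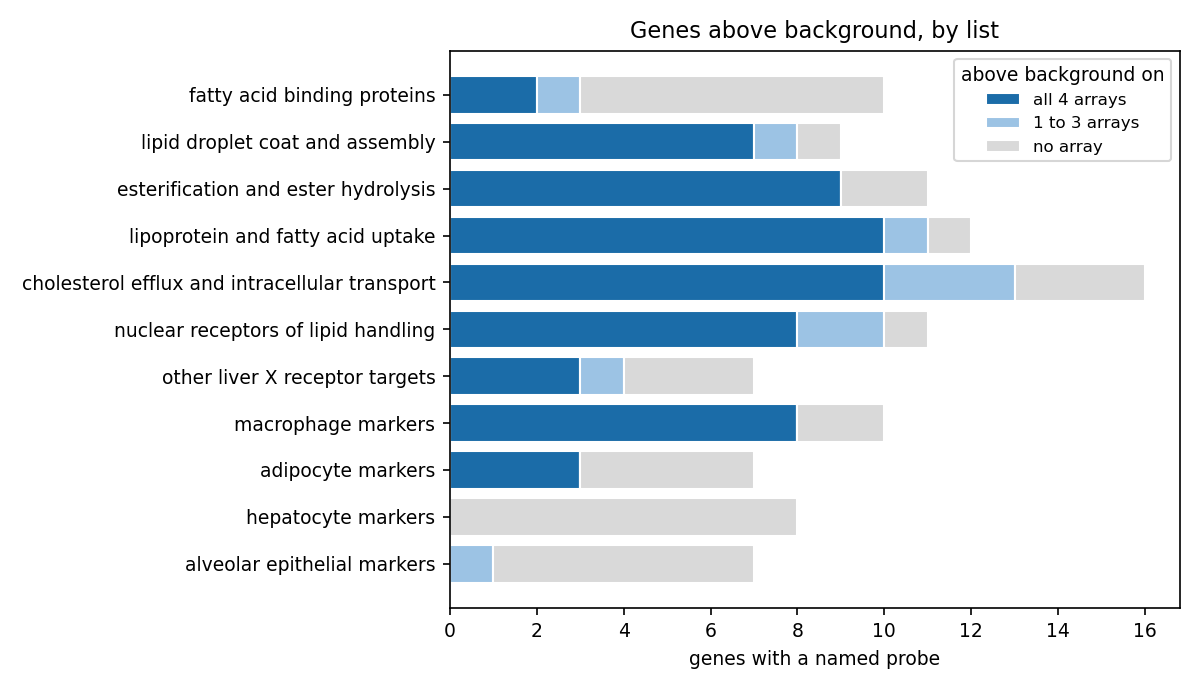
Number of genes with a named probe in each list above background on all 4 arrays (dark), on some of them (light) or on no array (grey). The lists of fatty acid binding proteins to nuclear receptors include the 10 genes. Macrophage markers were above background on all arrays for 8 of 10 genes and hepatocyte markers for 0 of 8.

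Markers of the labelled cell type were mostly present. Of 10 macrophage markers 8 were above background on all arrays, among them Cd68 at 3.50 to 4.00 and Ptprc at 0.77 to 2.16, and Marco and Adgre1 were on none. Markers of cells that share lipid genes were scarcer: 0 of 8 hepatocyte markers and 0 of 7 alveolar epithelial markers were above background on all arrays, with Sftpc on 1. Of 7 adipocyte markers 3 were (Retn, Cfd and Cidec), while Adipoq, Lep, Slc2a4 and Pck1 were on none.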

How the data were processed

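Per the file headers, the deposited intensity of each spot was made by the authors with Agilent Feature Extraction, version 11.0.1.1 per the submitters' processing notes, background-subtracted and detrended within the array and not normalized between arrays, on a design for rat build rn4. The headers of all 4 arrays name the same scan. Spots that the software marked as outliers were dropped, and log2 values of repeated spots were averaged. Accessions without version were matched to RefSeq (GRCr8), which named 21109 probes (46.3%). Because 34.2% of the probes were above background on all arrays, under 50%, the scaling used the 75th percentile of those probes. A gene took its brightest probe, by mean level. The genes and lists were chosen with earlier results of these data known. Named genes were the 10 genes, 15 partners by role, Cd68, Ptprc and Adipoq, and the 3 genes nearest to the most variable of the 9 above background on all arrays. With 1 group, no test was run. The spread and likeness measures were tested on simulated data. Alternatives were other scalings, quantile normalization, normexp (offset 50, limma 3.58.1 in R 4.3.3) on the median spot signal, other detection and probe rules, outlier spots kept, and each replicate left out. Other steps used Python 3.11.15 with pandas 2.3.3.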

Additional observations from a re-analysis of the deposited data

How the results depend on the processing

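Detection on all arrays held for 9 of the 10 genes in the main setting, for 10 with the software's positive and significant flag (58.7% of all genes) or without replicate 2 (48.1%), and for 7 when a probe had to exceed the brightest negative control spot of its array (33.0%), where Apoe, Abca1 and Soat1 dropped out. Leaving out replicates in turn gave 9 to 10. The count of genes with a range above 2-fold was 0 in the main setting and 2 (Plin2 and Nr1h2) when arrays were scaled on the 75th percentile of all non-control probes, where 18.5% of all genes passed, against 13.6% in the main setting. It was 0 under the other alternatives. The median SD of 0.26 ran from 0.196 with quantile normalization to 0.379 with scaling on the median, and from 0.238 to 0.259 without single replicates. The median over all genes was 0.25 with quantile normalization and 0.298 with scaling on the median. With the percentile of all non-control probes it was 0.353, beside 0.342 for the members. Whether the members or all genes had the larger median thus depended on the scaling. Of 99 SDs of single genes recomputed, 23 moved by over 1.5 times: 8 with the percentile of all non-control probes, 6 with quantile normalization, 3 with normexp, 2 with the median and 4 with a replicate left out. The scaling shifts arrays against each other: the medians of all genes spanned 0.10 between arrays in the main setting and 0.47 with the percentile of all non-control probes. Apoe had no value when probes had to be above background on all arrays. No paired analysis was possible because there was 1 group. Signal close to background limits Apoe, Abca1 and Soat1. The same limit holds for Rxra, Mylip, Msr1, Lcat and Abcg4, which read below Soat1 on every array.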

Other observations

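Among the partner and marker genes counted above, several transcripts better known from fat were present in these macrophages. Retn, which encodes resistin, had levels of 5.23, 5.51, 5.23 and 5.46 on replicates 1 to 4, and Cfd, which encodes complement factor D, had levels of 0.93, 1.52, 0.99 and 1.62. The droplet proteins Cidea, Cidec and Plin4 were above background on all 4 arrays, at -1.35 to -1.11, -1.45 to -1.08 and -2.06 to -1.60. Adipoq, which encodes adiponectin, was above background on none, with levels of -8.38 to -7.91. Lep, Slc2a4 and Pck1 were also on none, so 4 of the 7 measured adipocyte markers were above background on no array. These genes other than Adipoq were singled out after their values were seen.

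The 16 measured efflux and transport genes had no common order of the cultures. On replicates 1 and 3 both readings were above those of replicates 2 and 4 for 7 genes. These were Abca1, Abcg4, Abca7, Lcat, Apoe, Apoc1 and Stard4. The opposite held for 5 (Abcg1, Npc2, Cyp27a1, Pltp and Stard3), and 4 had neither order. Of the 7, Abca1 kept this order under only 2 of the 6 alternatives. Signal close to background limits Abca1, Apoe, Lcat and Abcg4. Of the 16 genes, 3 were above background on no array, and Apoc1, 1 of the 7, was among these. The arrays themselves fall into the same 2 like pairs, and the share of all genes with either order was not counted. The counts therefore do not set these 16 genes apart from all genes. Lcat, which esterifies cholesterol on high-density lipoprotein, read -4.90, -6.68, -4.55 and -6.86 on its brighter probe and -5.12, -7.56, -5.12 and -7.93 on its other, and both probes were above background on replicates 1 and 3 only. Abcg4, a relative of Abcg1, read -3.98, -5.49, -3.87 and -5.59 and was above background on 3 arrays. Msr1, a scavenger receptor from the uptake list, read -3.94, -5.31, -3.93 and -5.33. Lcat, Abcg4, Msr1, Cyp27a1, Pltp, Stard3, Stard4 and Apoc1 were named after their values were seen, and the difference between cultures was not tested.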
